A study of Mus musculus with 6 samples.

Results

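The mitochondrial ribosomal protein genes were described in left ventricles of mice with and without cytoglobin. Members were the rows of the count table whose symbol begins with Mrpl or Mrps followed by a number, which gave 77 of 13384 genes, 48 with a large subunit symbol (Mrpl) and 29 with a small subunit symbol (Mrps). Polyadenylated RNA was sequenced from 3 mice labelled Cygb(-/-), which lack the globin gene in the whole body, and from 3 wild-type littermates labelled Cygb(+/+). All 6 were adults, and over 2 weeks each had been infused with angiotensin II (1.5 mg/kg/day) by subcutaneous osmotic pump. Each library came from 1 mouse. There is no group free of the infusion in the comparison, and Cygb itself was not analysed here, so genotype rests on the labels.

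The mitochondrial ribosome translates the few messenger RNAs encoded by mitochondrial DNA, all of which specify subunits of the respiratory chain and ATP synthase. Its ribosomal RNAs come from mitochondrial DNA, whereas its proteins are encoded in the nucleus, made in the cytosol and imported. The heart, with its dense mitochondria, depends on this machine, and inherited defects in several of its proteins, among them human MRPL3 and MRPL44, cause cardiomyopathy. By the structures of the mammalian mitochondrial ribosome, some proteins descend from bacterial ribosomal proteins and others are specific to mitochondria. The symbols do not follow the structure throughout: Mrps30 and Mrps18a belong to the large subunit, and Mrps36 is now known as a component of the 2-oxoglutarate dehydrogenase complex. Of the 77 genes, 29 encode large subunit proteins with a bacterial homologue, 21 large subunit proteins specific to mitochondria (Mrps30 and Mrps18a included), 16 small subunit proteins with a bacterial homologue and 10 small subunit proteins specific to mitochondria.

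The genes are scattered over 17 chromosomes, and some of their promoters hold the letters of known motifs. Promoter sequences from RefSeq (GRCm38.p6, from 250 bases before to 50 after the start) were matched for 68 members. These were searched on both strands for 6 motifs, chosen with the results known: an NRF1-type motif (the 10 letters in capitals in Mrpl12, with the fifth free), CCGGAAG (ETS-type, the family of GABPA), ATGGCGGC (YY1-type), CACGTG (E-box), CCAAT and TATAAA. NRF1 and GABPA are known regulators of nuclear genes for mitochondrial proteins. The ETS-type letters stood in 25 of 68 member promoters (36.8%), against 17.8% of the 10307 promoters of genes in the count table and 9.12% of all 27025 promoters. The NRF1-type letters were in 13 (19.1%, against 10.4% and 4.78%) and the YY1-type letters in 12 (17.6%, against 5.07% and 2.38%). At least 1 of the 3 was in 40 of 68 member promoters (58.8%) and in 29.5% of those of the table, so the other member promoters held none of them in this window. The E-box was in 5.88% of member promoters (10.3% in the table), CCAAT in 38.2% (38.5%) and TATAAA in 5.88% (7.18%). By subunit, the ETS-type letters were in 33.3% of 42 large and 42.3% of 26 small subunit promoters, and the NRF1-type letters in 23.8% and 11.5%. The 90 bases before the start are shown for 3 members with the NRF1-type letters and 3 with the ETS-type letters, 5′ to 3′ on the strand of the gene, with those letters in capitals (in Mrpl45 the match is on the other strand). They are Mrpl12 (chr11:120484547-120484636, plus strand), Mrpl30 (chr1:37890387-37890476, plus), Mrpl45 (chr11:97315626-97315715, plus), Mrpl34 (chr8:71464836-71464925, plus), Mrps22 (chr9:98601680-98601769, minus) and Mrps18a (chr17:46110914-46111003, plus).
Mrpl12: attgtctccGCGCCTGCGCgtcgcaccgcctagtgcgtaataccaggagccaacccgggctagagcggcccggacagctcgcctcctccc
Mrpl30: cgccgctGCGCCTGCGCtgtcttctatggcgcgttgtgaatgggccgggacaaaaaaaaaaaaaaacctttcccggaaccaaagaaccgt
Mrpl45: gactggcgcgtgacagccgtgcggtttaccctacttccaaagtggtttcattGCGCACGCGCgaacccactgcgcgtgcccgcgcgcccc
Mrpl34: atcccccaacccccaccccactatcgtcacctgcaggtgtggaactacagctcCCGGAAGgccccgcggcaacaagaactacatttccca
Mrps22: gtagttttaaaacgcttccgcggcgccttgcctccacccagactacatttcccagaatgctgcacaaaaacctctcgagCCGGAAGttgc
Mrps18a: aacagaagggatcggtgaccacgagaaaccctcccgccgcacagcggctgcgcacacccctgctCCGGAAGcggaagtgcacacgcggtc
These matches describe letters in the windows and were not tested as binding sites.

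Library totals ran from 23190864 to 30354857 counts, with the largest in wild-type replicate 3, and every member had at least 39 counts in every library. Levels are given as CPM, counts scaled to library size with TMM factors. Summed markers of heart muscle cells (10 genes) ran from 63052 to 74919 CPM in the knockout and from 61645 to 80325 CPM in the wild type, so the tissue carried its defining transcripts. The 4 atrial markers summed to 492 to 566 CPM in the knockout and 699 to 3035 CPM in the wild type, with no overlap. The 8 fibroblast markers summed to 2264 to 2586 CPM and 2625 to 4340 CPM, also with no overlap. The highest sum was that of wild-type replicate 2, and replicates 1 and 3 were at 2683 and 2625 CPM. Singly, 2 of the 8 had every knockout value below every wild-type value, where 10.5% of all genes did. Their median log2 fold change was -0.396, and 0.136 without wild-type replicate 2. Ranges overlapped or met for endothelial (5 genes, 757 to 934 CPM against 791 to 1222), mural (5, 320 to 356 against 314 to 424), macrophage (5, 162 to 187 against 142 to 162) and red cell markers (4, 224 to 298 against 251 to 664). The lowest count of any gene in the count table was 12, so no marker in it could be at 0. Markers absent from the count table were left out of these lists. Genes of the mitochondrial chromosome took 20.4% to 24.0% of the counts in the knockout and 18.2% to 20.0% in the wild type. The part of these differences in the results on the members was not tested.

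No mitochondrial ribosomal protein gene passed the test between genotypes, and most lay slightly below 0. In edgeR's quasi-likelihood test, 0 of 77 members were called higher and 0 lower at an adjusted p under 0.05, where 0.0897% of all genes were called higher and 0.0224% lower (0.112% in either direction). At an unadjusted p under 0.05, 6 members were lower and 1 higher, together 9.09% of the 77, against 8.94% and 10.2% of all genes, together 19.2%. DESeq2 called 0 members as well (lowest adjusted p = 0.0595, for Mrps34), where it called 2.63% of all genes higher and 1.99% lower (4.62% together), and limma-voom called 0 (lowest 0.147, for Mrpl54). The log2 fold change, knockout minus wild type, was below 0 for 56 of 77 members, or 72.7%, against 50.6% of all genes. Its median was -0.098 over the members and -0.004 over all genes, and 42 members were within 0.2 of 0. In bulk tissue, fewer cells of a type and less RNA per cell cannot be told apart.

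The spread of the members was narrow. Their log2 fold changes ran from -0.54 (Mrps34) to 0.39 (Mrpl23), and 1 of 77 was beyond 0.5 in size, against 1814 of all 13384 genes. The median level was 42.2 CPM over the members and 18.1 CPM over all genes. The part of level in this contrast was not tested. The standard error had a median of 0.14 (0.11 to 0.28), and the coefficient of variation within a group had a median of 10.2%, against 13.3% over all genes. In simulated data for this comparison over 13384 genes, a shift of 0.5 in log2 was found by edgeR in 10% of the genes that had it, and a shift of 1 in 75.7%. These shares are over all genes, whose standard errors had a median of 0.17.

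**Figure D1:**
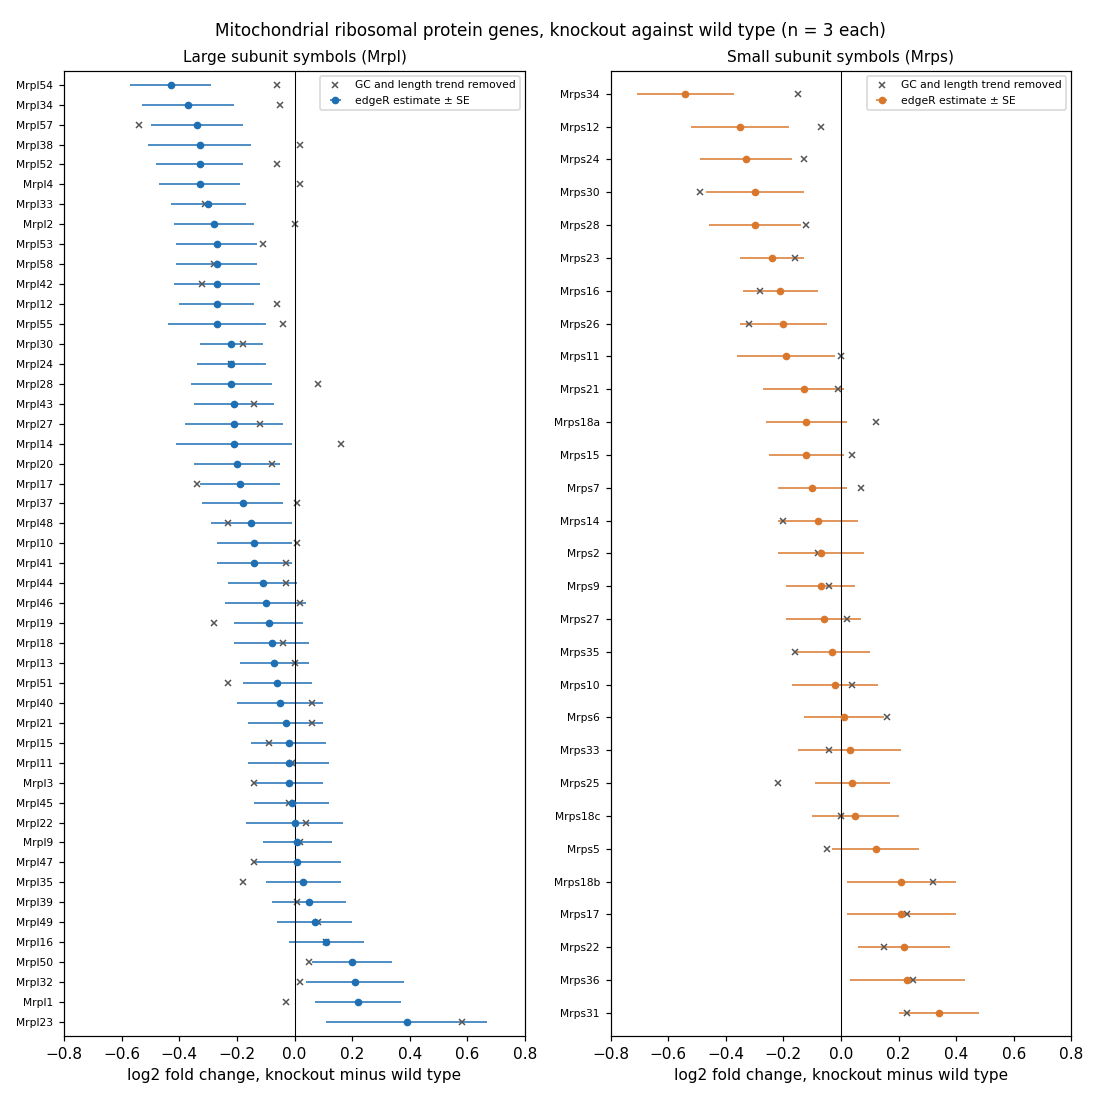
Log2 fold change (knockout minus wild type, x axis) of each of the 48 genes with large subunit symbols (left) and 29 with small subunit symbols (right), ordered by value; points are edgeR estimates with bars of 1 SE, and crosses are estimates with library trends on GC content and length taken out. Most points are left of 0 (56 of 77), and several of the leftmost, such as Mrpl54 and Mrps34, have crosses nearer to 0.

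Both subunits had more genes below 0 than above. Over the 48 large subunit genes, 37 were below 0 with a median log2 fold change of -0.138, and over the 29 small subunit genes, 19 were below 0 with a median of -0.069. The difference of the medians was -0.069, and it was 0.007 once GC content and length trends were taken out, -0.014 and 0 when wild-type replicate 1 or 2, in that order, was left out. With the proteins placed by structure, 39 of 50 large subunit genes were below 0 (median -0.138) and 17 of 26 small subunit genes (median -0.068). Proteins with a bacterial homologue had medians of -0.093 (large, 21 of 29 below 0) and -0.086 (small, 12 of 16). Those specific to mitochondria had medians of -0.151 (large, 18 of 21 below 0) and -0.004 (small, 5 of 10). These are descriptions, with no test between the classes.

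Summed levels of the members also overlapped between the groups. The 77 genes together stood at 3777, 3407 and 3368 CPM in knockout replicates 1, 2 and 3 and in the same order of replicates at 3927, 3499 and 4217 CPM in the wild type. The means were 3517 ± 226 CPM and 3881 ± 361 CPM (SD, n = 3 each), a knockout level of 0.906 of the wild type. Knockout replicate 1 was above wild-type replicate 2, so the groups overlapped. The ratio of summed large to summed small subunit counts was 2.187, 2.084 and 2.198 in the knockout and 2.177, 2.169 and 2.166 in the wild type. Apart from knockout replicate 2, which was lowest, the ratio hardly moved between libraries.

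The libraries of a genotype differed in the general level of the members. The median deviation of a member from its own mean over the 6 libraries, in log2, was 0.055, -0.113 and -0.136 in knockout replicates 1, 2 and 3 and 0.061, -0.099 and 0.142 in wild-type replicates 1, 2 and 3. Over all genes it lay between -0.011 and 0.009. Wild-type replicate 3 held the highest value of 42 of the 77 members, and knockout replicate 3 the lowest value of 33. Wild-type replicate 2 lay with knockout replicates 2 and 3, and knockout replicate 1 with wild-type replicate 1.

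**Figure D2:**
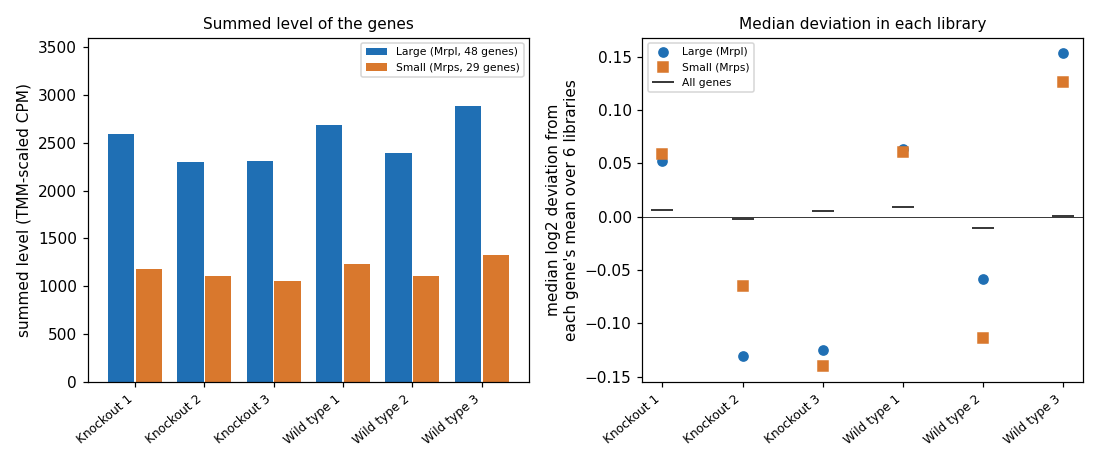
Left, summed TMM-scaled CPM of the large (48 genes) and small (29 genes) subunit genes in each library; right, median log2 deviation of the genes of each subunit, and of all genes, from each gene's mean over 6 libraries. Both subunits are highest in wild-type replicate 3, and knockout replicate 1 is above wild-type replicate 2 in both panels.

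Among the small subunit genes, Mrps34 had the lowest log2 fold change. It encodes a protein specific to mitochondria that is needed for a stable small subunit. The gene lies at chr17:24895116-24897502 (GRCm38, plus strand), and its exons overlap those of Mapk8ip3 on the opposite strand and Nme3 on the same strand, so reads there could belong to either and its value is uncertain. Mrps34 was at 51.3, 53.6 and 47.4 CPM in the knockout and at 83.1, 52.9 and 86.1 CPM in the wild type. Wild-type replicate 2 lay inside the knockout range, so the groups overlapped. The log2 fold change was -0.54 (SE 0.17, edgeR adjusted p = 0.131). Mrps12, which encodes a protein of the decoding site, was at 31.4, 27.8 and 22.9 CPM against 37.6, 27.9 and 39.4 CPM (-0.35 ± 0.17 in log2 as estimate and SE, edgeR adjusted p = 0.266), again with wild-type replicate 2 among the knockout values. Mrps24 (-0.33, SE 0.16) and Mrps28 (-0.30, SE 0.16), both with bacterial homologues, also had overlapping groups. Exons of Mrps24 are shared with Urgcp on its strand.

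Mrps23 was 1 of the 2 most abundant small subunit genes per length, and its groups did not overlap. It lies at chr11:88204388-88211507 on the plus strand, with no other gene over its exons. Mrps23 was at 177, 173 and 161 CPM in the knockout and at 206, 197 and 202 CPM in the wild type (-0.24 ± 0.11 in log2 as estimate and SE, edgeR adjusted p = 0.264). In the other direction, Mrps31 (chr8:22411361-22429665, plus strand) was at 44.9, 33.7 and 40.8 CPM against 31.7, 32.9 and 29.7 CPM (0.34 ± 0.14, edgeR adjusted p = 0.210), every knockout library above every wild-type library. It was the 1 member of 77 with all knockout values higher, where 11.8% of all genes had such a pattern. Mrps22, a human mitochondrial disease gene, was at 21.4, 16.8 and 15.1 CPM against 15.3, 14.8 and 15.6 CPM (0.22, SE 0.16), with the excess mainly in knockout replicate 1. Mrps17 was at 0.21 (SE 0.19). Others of the small subunit stayed close to 0: Mrps14 at -0.08 (SE 0.14), Mrps27 at -0.06 (SE 0.13) and Mrps5 at 0.12 (SE 0.15). Mrps16 was at -0.21 (SE 0.13).

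Among the large subunit genes, Mrpl54 (chr10:81264713-81266934, minus strand), which encodes a protein specific to mitochondria, had the lowest log2 fold change. It was at 24.0, 20.8 and 20.4 CPM in the knockout and at 27.2, 28.1 and 32.4 CPM in the wild type. The groups did not overlap (-0.43 ± 0.14 in log2 as estimate and SE, edgeR adjusted p = 0.140). In all, 7 members had every knockout value below every wild-type value, 9.09% of the 77 against 10.5% of all genes: Mrpl54, Mrpl12, Mrpl33, Mrpl30, Mrps23 and, named after their values were seen, Mrpl52 and Mrpl24. Mrpl12, part of the stalk that recruits translation factors and also a partner of the mitochondrial RNA polymerase, was at 106, 87.8 and 83.6 CPM against 113, 107 and 115 CPM (-0.27 ± 0.13, edgeR adjusted p = 0.266). Mrpl12 exons overlap Gm16755 on the opposite strand. Its stalk neighbours were nearer to 0, Mrpl10 at -0.14 (SE 0.13) and Mrpl11 at -0.02 (SE 0.14). Exons of Mrpl33 are shared with Gm43809 on its strand, so its value is uncertain.

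Genes around the peptide exit tunnel gave a range of values, with no test between them. Mrpl4, whose protein lines the tunnel, was at 65.8, 62.5 and 65.1 CPM against 92.6, 64.8 and 86.5 CPM (-0.33, SE 0.14), with wild-type replicate 2 inside the knockout range. Mrpl45, which encodes the contact with the inner membrane, was at 72.3, 63.4 and 61.2 CPM against 67.0, 59.4 and 72.0 CPM (-0.01, SE 0.13). Mrpl23, at the tunnel's end, had the highest log2 fold change of all members and the lowest level. It was at 2.37, 2.95 and 1.81 CPM against 1.61, 2.02 and 1.83 CPM (0.39 ± 0.28, edgeR adjusted p = 0.472), with overlapping groups and from 39 to 71 counts in a library. The annotation holds a pseudogene named for it, so reads could be split between copies and its value is uncertain.

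The cardiomyopathy genes of the large subunit lay near 0. Mrpl3 was at 91.4, 81.4 and 91.0 CPM in the knockout and 92.2, 81.1 and 94.5 CPM in the wild type (-0.02 ± 0.12 in log2). Mrpl44, whose protein has an RNase III-like fold, was at 44.6, 39.9 and 42.1 CPM against 43.7, 47.2 and 45.8 CPM (-0.11, SE 0.12). Both had overlapping groups. Of the remaining genes at the ends of the large subunit order, Mrpl34 was at -0.37 (SE 0.16) and Mrpl57 at -0.34 (SE 0.16), and Mrpl1 at 0.22 (SE 0.15), Mrpl32 at 0.21 (SE 0.17) and Mrpl50 at 0.20 (SE 0.14), the last 3 near 0 once trends on GC content and length were removed. Each of these 5 also had overlapping groups.

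**Figure D3:**
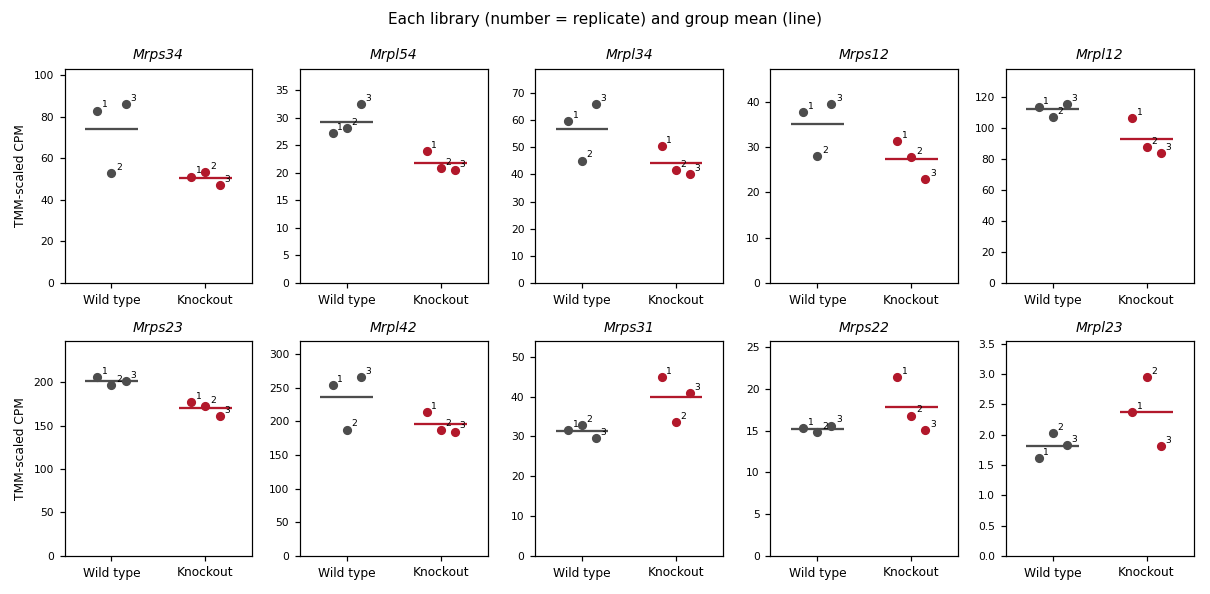
TMM-scaled CPM of 10 members in each library (points, numbered by replicate; lines are group means), with axes from 0. Wild-type replicate 2 lies at the knockout level for Mrps34, Mrps12 and Mrpl42, whereas Mrpl54, Mrpl12 and Mrps23 are lower in each knockout library than in any wild-type library.

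The symbols that depart from the structure gave mixed values. Mrps30, in the large subunit, was at 37.4, 32.5 and 34.3 CPM in the knockout and 47.7, 30.9 and 49.3 CPM in the wild type (-0.30 ± 0.17 in log2). Of the 3 Mrps18 paralogs, Mrps18a, in the large subunit, was at -0.12 (SE 0.14), Mrps18b at 0.21 (SE 0.19) and Mrps18c at 0.05 (SE 0.15), all with overlapping groups. Their levels per kilobase of transcript were 84.3 ± 10.1 CPM per kb for Mrps18a, 33.8 ± 3.73 for Mrps18c and 8.74 ± 1.39 for Mrps18b (SD over 6 libraries). Mrps36, of the dehydrogenase complex, was at 14.9, 9.32 and 10.8 CPM against 8.77, 9.65 and 11.3 CPM (0.23, SE 0.20). The annotation names 3 pseudogenes for Mrps36, which makes its value uncertain.

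Levels per length spanned a 108-fold range, although the proteins occur in single copies in the ribosome for the most part. Per kilobase, with the median length of a gene's protein-coding transcripts, 60 of 77 members lay between 10 and 100 CPM per kb, 5 above and 12 below. Mrpl42 was highest at 326 ± 54.6 CPM per kb, followed by Mrps21 (161 ± 21.8), Mrpl30 (148 ± 13.4), Mrps23 (140 ± 13.6) and Mrpl33 (123 ± 18.2; SD over 6 libraries). The ranges of Mrps21, Mrpl30 and Mrps23 overlapped, and that of Mrpl42 did not reach theirs. Lowest were Mrpl23 (3.03 ± 0.711), Mrps5 (4.36), Mrps25 (5.03) and Mrpl47 (5.11). The low end of the 108-fold range thus rests on Mrpl23, whose value is uncertain, with few counts and a named pseudogene. The median was 33.1 CPM per kb over the large and 22.3 over the small subunit genes, against 6.77 over all genes. Levels per length depend on the transcript assumed, since long alternative 3′ ends lower them.

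**Figure D4:**
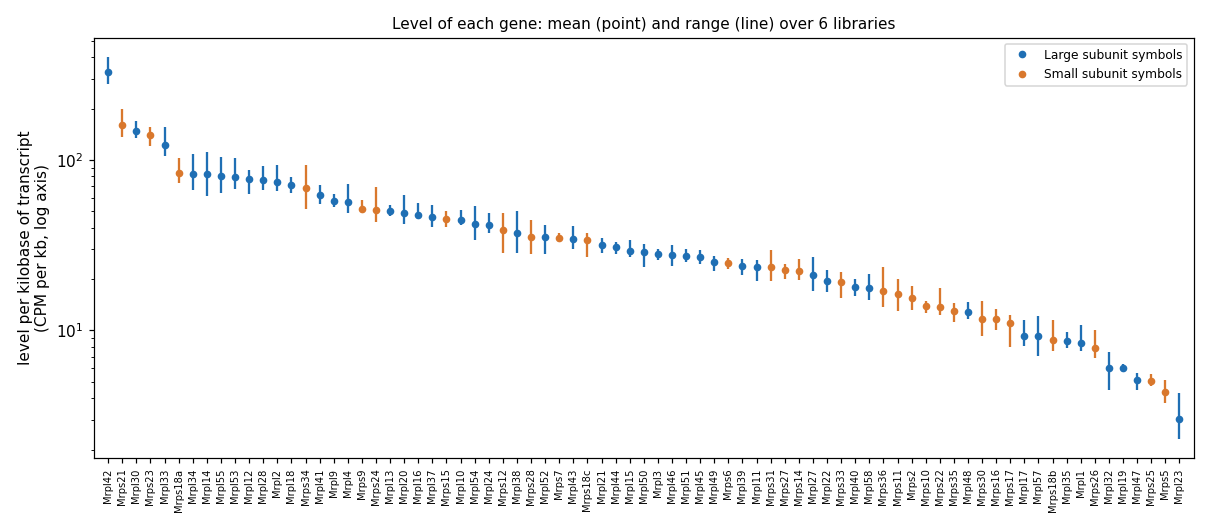
Level of each member per kilobase of transcript (CPM per kb, log axis), ordered from highest to lowest; points are means and lines ranges over 6 libraries, coloured by subunit symbol. Mrpl42 stands above the rest and Mrpl23 is lowest, and genes of both subunits are spread along the order.

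The fold change of a member went with the GC content of its transcript. Across the 77 members, Pearson's r between GC content and log2 fold change was -0.55 (Spearman -0.54), and across the 13104 genes with a GC content it was -0.48 (-0.53). All genes share the same 6 libraries, so these are descriptions and genes are not independent replicates. The 25 members of highest GC content (52.5% to 60.6%) had a median of -0.271, with 22 below 0, and the 25 of lowest GC content (41.4% to 48.4%) had a median of -0.021, with 13 below 0. Mrps34 (60.6%), Mrpl54 (60.4%), Mrpl4 (60.1%) and Mrpl34 (58.3%) were among the former, and Mrps31 (44.2%) and Mrps22 (45.8%) among the latter. Among the members, the log2 deviation per 10 points of GC content was -0.108, -0.050 and -0.142 in knockout replicates 1, 2 and 3 and 0.195, -0.077 and 0.181 in wild-type replicates 1, 2 and 3. Over all genes these slopes were -0.193, -0.067 and -0.168 against 0.289, -0.095 and 0.234. Wild-type replicate 2 thus had the sign of the knockout libraries.

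When the trends of the libraries on GC content and length, fitted over all genes, were removed, 49 of 77 members were below 0 with a median of -0.039, beside 49.7% of all genes and a median of 0.002. The medians were -0.035 for the large and -0.041 for the small subunit. Mrps34 was then at -0.15, Mrpl54 at -0.06, Mrpl34 at -0.05, Mrps12 at -0.07, Mrpl12 at -0.06 and Mrpl4 at 0.02. Of the large subunit members that had been above 0, Mrpl1 was at -0.03, Mrpl32 at 0.02 and Mrpl50 at 0.05, whereas Mrpl23 was at 0.58. In the small subunit, Mrps31 was at 0.23, Mrps22 at 0.15 and Mrps17 at 0.23. Among those below 0, some kept or exceeded their values, with Mrpl57 at -0.54, Mrps30 at -0.49, Mrpl33 at -0.31 and Mrpl42 at -0.32. In edgeR 0 members passed (lowest adjusted p = 0.2, for Mrpl33), where 0.0747% of all genes were called higher and 0.0523% lower (0.127% together), and 8 of 77 members had an unadjusted p under 0.05, where 13.8% of all genes did. The groups did not overlap for 2 members higher and 7 lower in the knockout, against 9.7% and 8.57% of all genes. Across members the correlation with GC content was then 0.34, so the removal did not leave the members without a trend. Pearson's r with the log2 of transcript length was 0.24 before the removal and -0.41 after it. The 25 members of lowest GC content then had a median of -0.164, with 20 below 0. Mrpl57, Mrps30, Mrpl33 and Mrpl42 are among these 25.

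**Figure D5:**
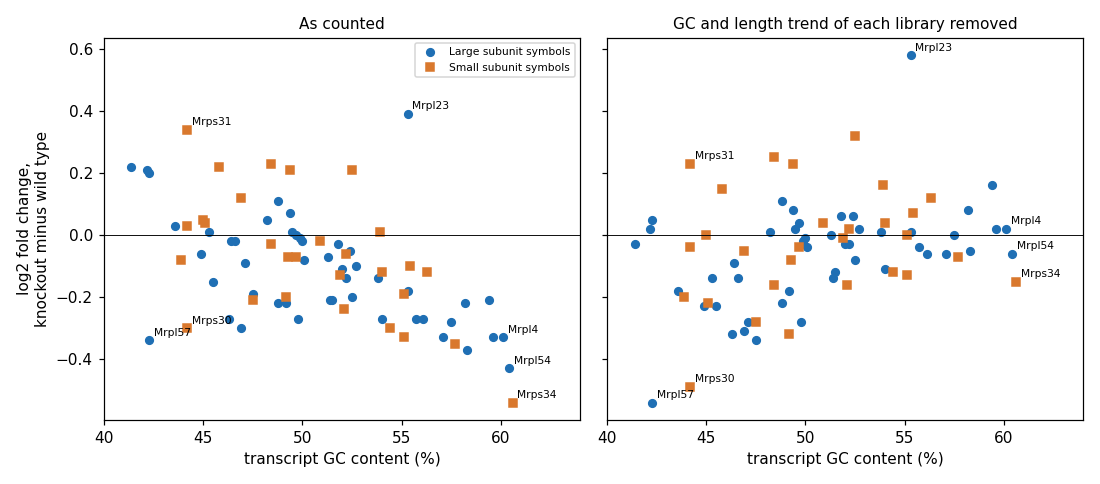
Log2 fold change (knockout minus wild type, y axis) of each member against the GC content of its transcripts (x axis, percent), as counted (left) and with the trends of the libraries on GC content and length removed (right); circles are large and squares small subunit symbols. The points slope down on the left (r = -0.55) and up on the right (0.34).

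Members were called only in the fit without wild-type replicate 2, of the alternatives run. Without it, edgeR called 11 members lower and 0 higher, where it called 6.39% of all genes lower and 7.25% higher. They were Mrps34 (log2 fold change -0.73, edgeR adjusted p = 0.00474), Mrpl4 (-0.47, 0.0192), Mrps30 (-0.47, 0.0240), Mrpl34 (-0.50, 0.0263), Mrps24 (-0.48, 0.0294), Mrpl42 (-0.40, 0.0361), Mrps12 (-0.49, 0.0430) and, named after their values were seen, Mrpl38, Mrpl55, Mrpl2 and Mrpl58. With any other single library left out, 0 members were called. That fit compares 3 knockout mice with 2 wild-type mice, in which the GC content slopes of the groups have opposite signs.

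The other parts of the mitochondrial ribosome gave values of similar size. The 2 ribosomal RNAs, mt-Rnr1 of the small and mt-Rnr2 of the large subunit, were captured with the polyadenylated RNA. Their values count only the molecules captured that way and need not follow the amount of ribosomal RNA. mt-Rnr1 was at 3460, 2637 and 3534 CPM in the knockout and 2748, 3070 and 2792 CPM in the wild type (0.16 ± 0.14 in log2 as estimate and SE, edgeR adjusted p = 0.547). mt-Rnr2 was at 6872, 4753 and 6985 CPM against 6391, 6045 and 5725 CPM (0.04 ± 0.16, edgeR adjusted p = 0.922). Both overlapped between the groups. Of the 5 subunit genes with other names, 0 passed, with a median of -0.172. Ptcd3 was at 0.29 (SE 0.13), every knockout library above the wild type, and Aurkaip1 at -0.29 (SE 0.13), every knockout library below. Dap3, named after its values were seen, was also lower in every knockout library (-0.12, SE 0.11). Of all genes, 11.8% had every knockout library above the wild type and 10.5% every one below. Gadd45gip1 was at -0.26 (SE 0.13). Once GC content and length trends were taken out, Ptcd3 was at 0.12, Aurkaip1 at -0.02 and Gadd45gip1 at -0.12.

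The lists around the ribosome had 0 members past the test as well. Assembly factors had 14 of 25 below 0 (median -0.085), with the inner membrane protein gene Mpv17l2 at -0.44 (SE 0.17), the methyltransferase gene Mettl15 at 0.53 (SE 0.24) and Rcc1l at -0.29 (SE 0.14). With GC content and length trends out, the median was -0.001, Mpv17l2 was at -0.05, Mettl15 at 0.37 and Rcc1l at -0.04. Translation factors had 5 of 16 below 0 (median 0.025), with the elongation factor 4 homologue Guf1 at 0.37 (SE 0.15), the COX1 translation activator Taco1 at 0.28 (SE 0.14) and the initiation factor Mtif2 at 0.25 (SE 0.13); without those trends they were at 0.22, 0.41 and 0.09. For transcription and RNA processing, 6 of 18 were below 0 (median 0.128), with the RNA-degrading enzyme gene Pnpt1 at 0.47 (SE 0.18), Trmt10c at 0.31 (SE 0.16) and Lrpprc at 0.23 (SE 0.14); without those trends they were at 0.26, 0.11 and 0.06. Of the genes named from these lists, Mettl15, Rcc1l, Taco1, Pnpt1, Trmt10c and Lrpprc had overlapping groups. Those of Mpv17l2, Guf1 and Mtif2 did not overlap. Over the whole lists, groups did not overlap for 8.0% of assembly factors, 12.5% of translation factors and 5.56% of transcription and RNA genes. The share over all genes was 22.3%. The 13 proteins that the ribosome makes had transcripts above 0 without exception (median 0.251), with 0 past the test. Once GC content and length trends were taken out, their median was 0.001 with 6 below 0. The 3 of smallest p, ATP8, ND5 and ND4L, had been at 0.60 (SE 0.15), 0.69 (SE 0.18) and 0.75 (SE 0.23). After that removal they were at 0.25, 0.39 and 0.58.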

How the data were processed

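Polyadenylated RNA from 6 left ventricles was sequenced, and the authors deposited its raw counts per gene in 1 table of whole numbers. Per the submitters' processing notes the build was mm10 and DESeq2 was used; the sources used here do not give the aligner, counter, annotation or use of strand. The main test was edgeR's quasi-likelihood test (version 4.0.16, in R 4.3.3), fitted across 13384 genes with TMM size factors, robust estimation and the tool's filter on low counts, which removed 0 genes. Its two-sided p-values, with Benjamini-Hochberg adjustment over the whole table, measure the spread between individual mice. Alternatives used DESeq2 1.42.0 and limma 3.58.1, among others. Transcript length and GC content (medians over protein-coding transcripts) came from GENCODE M21 on GRCm38 for all 77 members and 97.9% of genes. The trend removal used splines with 4 degrees of freedom. The fit was tested on simulated data, where 9.89% of calls were false, more than the adjusted p threshold of 0.05 allows for. The simulated counts were drawn without library trends on GC content or length, so they do not show how the fit handles such trends. The exons of 30 members overlap another annotated gene, such as Mrpl46 and Mrps11 with each other, so reads could be assigned to either. For overlaps on opposite strands this applies where strand was not used, and for those on the same strand in either case. The members and lists were chosen with earlier results of these data known. Genes named were the 4 highest and 4 lowest fold changes of each subunit, and in each subunit the 4 highest and 2 lowest levels per kilobase, a preset panel by role, and up to 3 genes of smallest p in each other list; not all of them are named in the text.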

Additional observations from a re-analysis of the deposited data

How the results depend on the processing

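The count of members called higher was 0 in every one of 20 alternatives, and that of members called lower was 0 in 19 of 20 (0 to 11 with a library left out, 11 without wild-type replicate 2). The count below 0, an outcome added after the data were seen, was 56 and ran from 48 to 63. The large subunit median of -0.138 was -0.033 with the GC content and length trend removed and the replicate block, and ran from -0.192 to -0.076 with a library left out. The small subunit median of -0.069 ran from -0.135 to 0.008, above 0 without wild-type replicate 3. The difference between them, -0.069, was 0.007 with the GC content and length trend removed, 0.01 with the replicate block as well, and ran from -0.084 to 0 with a library left out. The knockout to wild-type ratio of the summed level, 0.906, ran from 0.868 to 0.947. Of 37 named members, 7 passed in 1 alternative each, without wild-type replicate 2, and 14 changed sign in at least 1. Same-numbered libraries did not deviate together (r of -0.121, -0.076 and -0.149 for numbers 1, 2 and 3). Of 6 libraries, 0 correlated best with their own number. With so few libraries in each group, these values cannot show whether same-numbered libraries were paired. With the replicate block 0 members and 218 of all genes passed, against 15 of all genes without it. Low counts limit Mrpl23 most, at 39 to 71 counts.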

Other observations

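Among the mitochondrial aminoacyl-tRNA synthetase genes, 0 of 20 passed, and 11 were below 0 (median -0.044). Lars2 had the smallest p. It was at 1129, 814 and 972 CPM in the knockout and at 4572, 2448 and 1888 CPM in the wild type (-1.61 ± 0.32 in log2 as estimate and SE, edgeR adjusted p = 0.0797), with no overlap and -1.63 once GC content and length trends were taken out. Its level of 506 CPM per kb compares with a median of 9.75 over the list. Whether all reads counted for Lars2 come from its messenger RNA was not tested, so its value is uncertain. Wars2 was at 0.50 (SE 0.18) and Vars2 at -0.27 (SE 0.14), and without those trends at 0.49 and -0.10.

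Of 8 regulators of mitochondrial biogenesis, 0 passed. Ppargc1a, which encodes the coactivator PGC-1 alpha, was at 114, 94.6 and 114 CPM against 83.3, 82.8 and 82.0 CPM (0.38 ± 0.12 in log2 as estimate and SE, edgeR adjusted p = 0.136), every knockout library above the wild type. Gabpa, for the ETS factor named above, was at 66.9, 55.4 and 62.6 CPM against 46.8, 49.0 and 46.1 CPM (0.38 ± 0.12, edgeR adjusted p = 0.140). Both were nearer to 0 once GC content and length trends were taken out, at 0.16 and 0.15. Esrra, an orphan receptor gene, was at 160, 144 and 142 CPM against 215, 146 and 215 CPM (-0.37, SE 0.15). Its wild-type replicate 2 was inside the knockout range, and its log2 fold change was 0.03 after that removal. The median over the cytosolic ribosomal protein genes was -0.091 (54 of 86 below 0). That over the nuclear genes of the respiratory chain was -0.092 (62 of 87 below 0), beside -0.098 for the mitochondrial ribosomal proteins. Once GC content and length trends were taken out, these medians were -0.028 (47 of 86 below 0), -0.0 (44 of 87) and -0.039, in that order.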
